A study of Mus musculus with 19 samples.

Results

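Control progenitors of the embryonic mouse forebrain shared 21415 regions of open chromatin, of 38176 regions found in at least 1 of their 4 libraries. These 21415 regions are described here, with the sites that scored highest, the genes that held most of them, and the difference between sites near and far from gene ends. A region was counted when all 4 control libraries had a peak summit in it. Each library contributed its 29112 best-scoring summits, and summits at most 200 bp apart were chained into 1 region.

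The assay was bulk ATAC-seq, where a transposase cuts and tags accessible DNA. It was run on Prom1-positive cells collected with magnetic beads from forebrain at embryonic day 14. The series holds 19 libraries and asks how retinoic acid from the meninges acts on neurogenesis. The 4 libraries used here, controls 1 to 4, are labelled as wild type for Foxc1 and as receiving no diet, which separates them from mutants carrying the hith and LacZ alleles and from animals given a retinoic acid diet. The labels do not say whether each library came from its own embryo, from pooled embryos or from 1 litter, so the spread between libraries may be technical.

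Prom1, also called prominin, is a membrane protein on the apical surface of radial glia, the progenitors that line the ventricle and give rise to cortical neurons directly or through intermediate progenitors. Active promoters are usually kept free of nucleosomes and therefore appear in ATAC-seq of almost any tissue, whereas distal enhancers are open in fewer cell types. Sox2, Pax6, Hes5, Fabp7 and Emx1 mark forebrain radial glia, Pax6 and Emx1 mainly those of the dorsal side: Sox2, Pax6 and Emx1 are transcription factors, Hes5 is a repressor induced by Notch, and Fabp7 is a lipid-binding protein.

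The strongest regions lay mostly just upstream of start sites, and many of those promoters held copies of the CCAAT box, the motif bound by the factor NF-Y. Promoter sequence was given by RefSeq (GRCm38.p6) for 13 of the 20 best-ranked regions. The stretches below, read 5′ to 3′ on the strand of the gene, reach up to 60 bases on each side of the region's midpoint. Capitals mark CCAAT, or ATTGG where the box is on the other strand. They were chosen to show promoters with 3, 2, 1 and 0 boxes in the stretch. Stip1 lies on the minus strand at chr19:7040131-7040251, Prmt5 on the minus strand at chr14:54517508-54517628, Fam72a on the plus strand at chr1:131527653-131527749, Rab5b on the minus strand at chr10:128696340-128696460, Traf7 on the minus strand at chr17:24527952-24528072, Hmgb2 on the plus strand at chr8:57511686-57511806, Pcx on the plus strand at chr19:4510274-4510394 and Pa2g4 on the minus strand at chr10:128566077-128566184.
Stip1: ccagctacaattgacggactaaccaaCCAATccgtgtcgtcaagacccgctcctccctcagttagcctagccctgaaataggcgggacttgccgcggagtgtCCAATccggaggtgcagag
Prmt5: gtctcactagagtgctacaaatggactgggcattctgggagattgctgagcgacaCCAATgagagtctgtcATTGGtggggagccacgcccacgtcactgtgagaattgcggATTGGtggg
Fam72a: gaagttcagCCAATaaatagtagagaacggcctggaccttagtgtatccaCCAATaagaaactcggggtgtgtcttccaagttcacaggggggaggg
Rab5b: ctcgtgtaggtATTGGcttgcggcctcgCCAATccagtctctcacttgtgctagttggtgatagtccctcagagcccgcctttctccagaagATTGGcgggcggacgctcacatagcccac
Traf7: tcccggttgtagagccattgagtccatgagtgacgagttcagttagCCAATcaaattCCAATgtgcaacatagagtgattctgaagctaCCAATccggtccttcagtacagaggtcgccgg
Hmgb2: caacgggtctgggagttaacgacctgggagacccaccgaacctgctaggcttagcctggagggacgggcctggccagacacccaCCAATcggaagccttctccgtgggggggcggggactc
Pcx: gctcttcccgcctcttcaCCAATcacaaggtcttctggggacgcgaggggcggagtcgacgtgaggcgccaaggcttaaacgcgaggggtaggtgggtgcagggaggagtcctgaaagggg
Pa2g4: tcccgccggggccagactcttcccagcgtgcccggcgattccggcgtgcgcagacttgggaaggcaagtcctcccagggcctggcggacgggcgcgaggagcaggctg

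Of these stretches, those of Prmt5, Rab5b and Traf7 held 3 boxes each, those of Stip1 and Fam72a held 2, those of Hmgb2 and Pcx held 1, and that of Pa2g4 held none. Among the 13 promoters with sequence, 9 had a box within the stretch around the midpoint and 10 had one anywhere in the 300 bases listed per promoter. Over those 300 bases, 38.2% of all protein-coding promoters and 46.7% of those that held a shared region had one.

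The promoters of 2 radial glial markers are shown beside them because their own regions scored much lower. Sox2 is printed on the plus strand over chr3:34649745-34649994 with its CCAAT box in capitals. Hes5 is printed on the plus strand over chr4:154960673-154960922, and its capitals mark GTGGGAA, or TTCCCAC on the other strand, the letters bound by the Notch partner RBPJ. The Hes5 stretch also holds 2 CCAAT boxes, left in lower case. Both stretches end at the base before the listed start site.
Sox2: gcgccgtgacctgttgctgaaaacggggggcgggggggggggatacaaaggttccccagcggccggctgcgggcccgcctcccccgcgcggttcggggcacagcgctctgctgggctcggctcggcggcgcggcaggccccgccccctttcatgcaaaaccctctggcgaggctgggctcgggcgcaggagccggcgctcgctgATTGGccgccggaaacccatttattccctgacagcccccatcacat
Hes5: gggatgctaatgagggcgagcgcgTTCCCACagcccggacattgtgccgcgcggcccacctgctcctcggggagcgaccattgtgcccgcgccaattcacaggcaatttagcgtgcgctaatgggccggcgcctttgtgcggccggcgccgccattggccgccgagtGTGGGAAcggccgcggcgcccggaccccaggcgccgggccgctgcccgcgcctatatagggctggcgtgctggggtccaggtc

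The Hes5 promoter held the RBPJ letters in both orientations. They were in 6.31% of the 6593 RefSeq promoters that held a shared region, against 6.07% of all 21263 listed protein-coding promoters. The listed promoters include none on chromosome 18. The shared region of Sox2 was centred 76 bp upstream of its start, and that of Hes5 206 bp upstream of the start in the promoter table. Measured from the listed end of the gene, the same Hes5 region lay 91 bp inside it.

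Scores rank summits within a library and are not comparable between libraries. The score is the -log10 of the q-value that MACS2 gave each summit. Control 1 had 82201 deposited summits, control 2 had 77593, control 3 had 111835 and control 4 had 122591. The 29112 summits kept per library are the number in the shortest list of the series. The last summit kept scored 24.5 in control 1, 25.1 in control 2, 45.7 in control 3 and 53.7 in control 4, and the next summit below it had the same score to 3 significant digits in each. Read depth is unknown from these files, so list length and score level were the available signs of it, and both were higher in controls 3 and 4. Below, rank 1 is the highest score of a library, and a region's mean rank is the mean over the 4 controls.

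The 4 libraries placed their summits close together. Each shared region held exactly 1 summit per library, the median region spanned 41 bp from its first to its last summit, and 1241 regions had all 4 summits on the same base. Regions of all 4 controls made up 56.1% of the 38176, regions of 3 controls numbered 4454, regions of 2 numbered 5119 and regions of 1 numbered 7188. Of each library's matched summits 73.6% fell in shared regions. Rank correlations over the shared regions ran from a Spearman rho of 0.812 between controls 2 and 3 to 0.948 between controls 3 and 4, and they describe regions that all passed the same rank limit.

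The limit on rank decided part of this set. In 3341 of the 4454 regions with summits in 3 controls (75.0%), the remaining control had a deposited summit there that ranked below the limit. Control 2 was the missing library most often, in 1621 regions, and control 4 least often, in 724. Inside the limit, 773 shared regions had their worst rank among the last 1000 places.

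**Figure D1:**
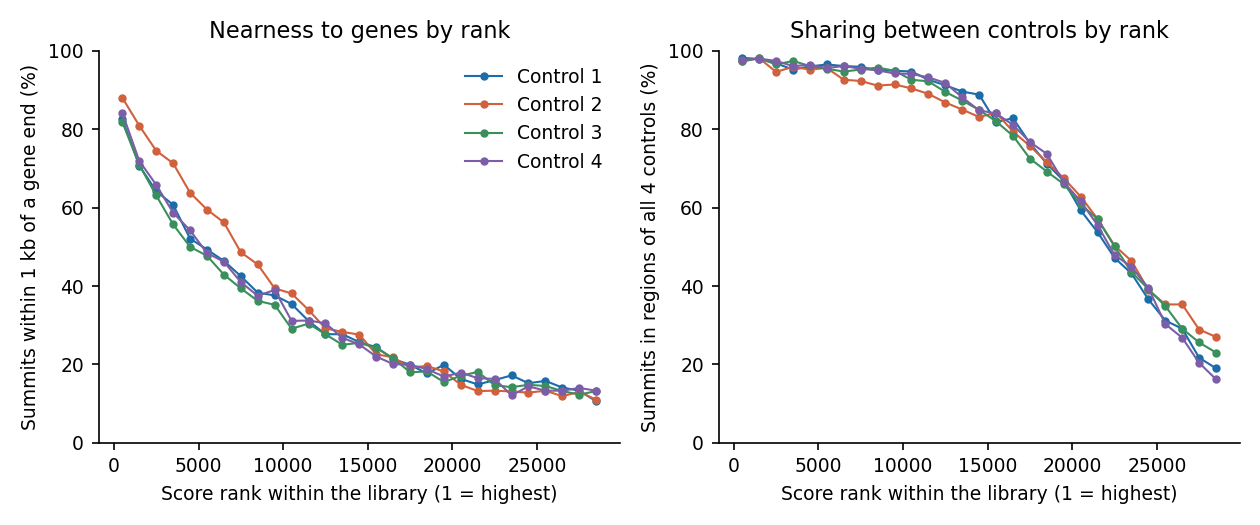
Percentage of summits at most 1 kb from a gene end (left) and percentage lying in regions of all 4 controls (right), in bins of 1000 ranks, against the rank within each library, where 1 is the highest score. Each line is 1 control: 81.8% to 88.0% of the best 1000 summits lay near a gene end and 97.3% to 98.2% were shared, against 10.6% to 13.3% and 16.2% to 27.0% in ranks 28001 to 29000.

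Proximal sites, within 1 kb of either end of a protein-coding gene, were the minority of shared regions and the majority of the strong ones. There were 7965 proximal regions (37.2%) and 13450 distal ones (62.8%). The proximal regions had median ranks of 6639, 5580, 6995 and 6644 in controls 1 to 4, and the distal regions 13649.5, 15037.5, 13327 and 13702.5. Ranks of proximal regions were thus better in every control, and the gap, as a percentage of list length, was 25.6 ± 4.70 (SD, n = 4). Because the score chose the regions, these ranks are a description with no test.

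The share of summits near a gene end also differed between shared regions and the rest. Since this share follows rank, and rank chose the regions, the difference is given as a description with no test. Inside the shared regions it was 37.2% ± 0.0227 (SD, n = 4), a spread that is small because the 4 libraries contribute summits to the same regions. Among each library's other matched summits it was 17.4%, 26.8%, 12.4% and 16.1% in controls 1 to 4, or 18.2% ± 6.16. The difference was 19.0 ± 6.16 percentage points, with control 2 lowest at 10.4 and control 3 highest at 24.8. With all deposited summits the mean difference was 10.5 points.

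Strength fell within the first 10 kb and little beyond. Regions within 1 kb had a median mean rank of 6626.25, and those from 1 to 10 kb (3373 regions) had 13810.5. The 6822 regions from 10 to 100 kb had 14677.6 and the 3255 beyond 100 kb had 14410. Of the 1000 best-ranked regions, 855 lay within 1 kb, 75 from 1 to 10 kb, 52 from 10 to 100 kb and 18 beyond 100 kb. Of the distal regions 52.5% lay inside a protein-coding gene.

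Proximal regions lay at the start of genes far more than at their other end. Strand was known for 6455 proximal regions, and 6196 of them (96.0%) were nearest the start end. Their median mean rank was 6107.25, against 14255.5 for the 259 at the other end. Some distal regions also lay at starts, since the promoter table lists alternative and non-coding starts that are not gene ends: 1503 distal regions (11.6% of those on chromosomes with listed starts) were within 1 kb of one. Their median mean rank was 9636.25, between the proximal regions and the 14943.8 of the remaining distal regions.

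Midpoints concentrated just upstream of transcription start sites. Of the promoters of protein-coding genes, 8853 had a shared region within 1 kb, and the nearest midpoint lay at a median of -46 bp, with quartiles at -115 and 9 bp. Negative values are upstream. In 42.8% the midpoint was in the 100 bp upstream of the start, and in 71.7% it was upstream at any distance up to 1 kb.

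**Figure D2:**
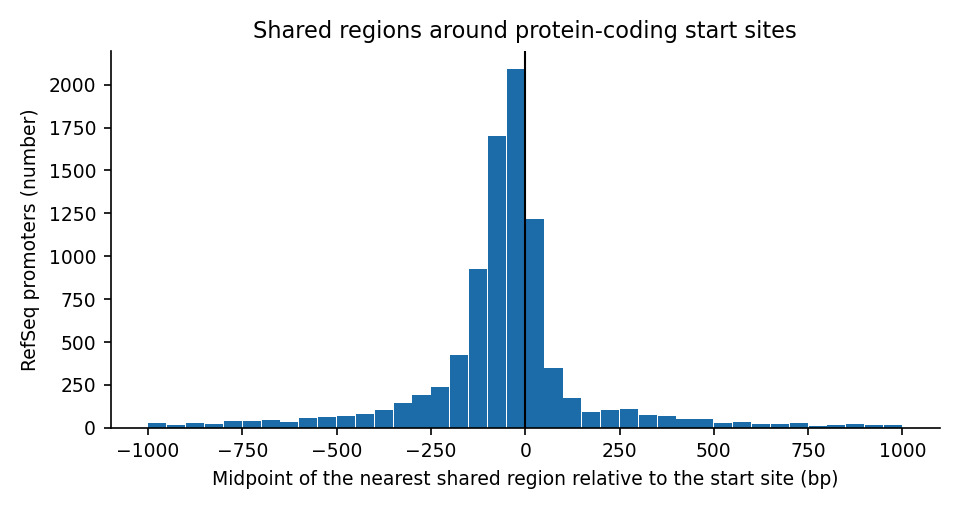
Number of RefSeq protein-coding promoters by the position of the nearest shared region's midpoint relative to the start site (bp, negative is upstream, bins of 50 bp). The 8853 promoters with a region within 1 kb peak just before the start, with a median of -46 bp.

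The 20 best-ranked regions lay mostly at promoters, many of them of genes that act in most cells. Of these 20, 18 were proximal, and 4 lay within 1 kb of the ends of 2 or more genes. The first was at Stip1, which encodes a co-chaperone that joins Hsp70 to Hsp90, with ranks of 5, 16, 3 and 4 in controls 1 to 4 and a midpoint 165 bp from the gene (chr19:7040191-7040192). Stt3a, the catalytic subunit of oligosaccharyltransferase, followed with ranks of 13, 6, 9 and 9. Both sites were in the first 20 of every control, and no other region was.

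Single libraries put other sites first. Prmt5, an arginine methyltransferase that modifies histones and splicing proteins, ranked 1, 32, 25 and 13. Rnf44, a RING finger protein, ranked 3, 1, 15 and 27. Tomm40, the channel of the mitochondrial outer membrane, ranked 33, 4, 12 and 5 at a site also within 1 kb of Nectin2. The first place of a library therefore belonged to a different gene in controls 1 and 2.

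Genes of RNA and protein handling recurred among the remaining sites. Prmt1, the main asymmetric arginine methyltransferase, had a mean rank of 34.25. Pa2g4, a proliferation-associated RNA-binding protein, had 34.25 too. Cnot3, a subunit of the CCR4-NOT deadenylase, had 36.5, and 1 site near ends of both Rpgrip1 and Hnrnpc, the latter a core hnRNP protein, had 34.75. No enrichment was tested for this or any other theme.

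Other named sites served transport, metabolism and chromatin. Rab5b, a GTPase of early endosomes, had a mean rank of 30.25. Pcx, the mitochondrial pyruvate carboxylase, had 48.25, and Hmgb2, a chromatin protein abundant in dividing cells, had 50.75. Cic, the Capicua repressor that acts downstream of receptor tyrosine kinases, had 21. A site near ends of both Fto, an RNA demethylase, and the ciliary gene Rpgrip1l had 40.75.

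Srgap2, a regulator of neuronal migration and of spine maturation, had a site 158 bp outside the gene (chr1:131527689) that was 214 bp upstream of the Fam72a start. Its ranks were 9, 70, 13 and 7. Control 2 gave it the lowest place. Desi2, Aktip and Traf7 had mean ranks from 40 to 52.5.

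Control 2 weighed on which sites were named. Without it, 9 of the 20 regions remained among the 20 best, whereas leaving out control 1, 3 or 4 kept 16, 18 and 17. Of the 100 best-ranked regions 91 were proximal. The first 100 places of the 4 controls held 198 regions between them, and 24 of these were in the first 100 of every control.

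**Figure D3:**
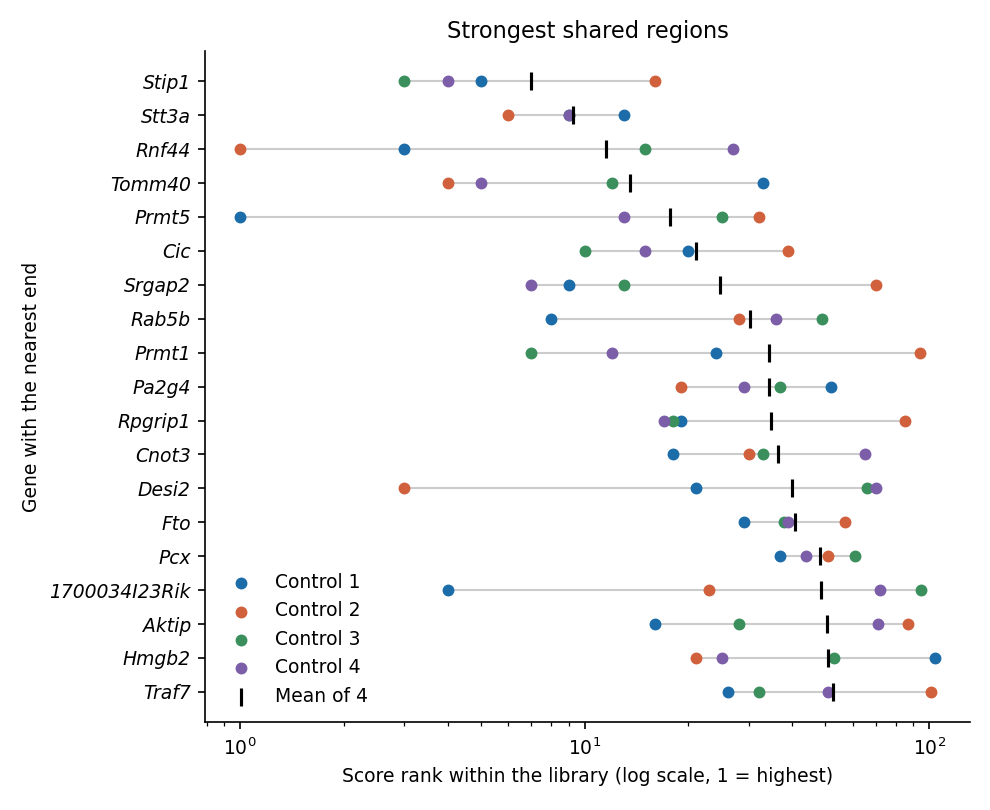
Rank within each control library (log scale, 1 is the highest score) of sites among the 20 shared regions with the smallest mean rank, named by the gene with the nearest end. Points are the 4 controls and the black tick is their mean, from 7 at Stip1 to 52.5 at Traf7; the single ranks reach 104.

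Several of the strongest distal regions were at start sites that the distance to a gene end did not capture. The strongest lay 6.05 kb from 1700034I23Rik, with ranks of 4, 23, 95 and 72 (chr3:40894146-40894147), and was 42 bp from the listed start of 6430590A07Rik and 113 bp upstream of Abhd18. Aktip, Trim45 and Rps6ka2 followed with mean ranks of 50.5, 55 and 59. Their sites lay 170, 230 and 191 bp from a listed start of the same gene. Rps6ka2, a ribosomal S6 kinase, had its site 81.0 kb inside the gene from the nearer end.

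Others of the first 10 distal regions were less clearly promoters. The Grik5 site, near a kainate receptor subunit gene, ranked 35, 109, 98 and 52 and lay 4750 bp from the nearest listed start. The Zfp958 site ranked 196, 76, 86 and 81, at 45.3 kb from the gene and 13057 bp from any listed start. The remaining ones were assigned to Kat6b, Rbm15, Por and Stard13, with mean ranks from 96 to 160.5, and the sites of Rbm15, Por and Stard13 were 3, 20 and 43 bp from a listed start.

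Promoter sequence changed with rank. Protein-coding promoters of 300 bases (250 before and 50 after the start) were split by whether they held the midpoint of a shared region (6593), had one within 1 kb (2260) or had none within 1 kb (12410). The median GC content was 62.3% in promoters that held a region and 51.0% in those with none. The median number of CpG dinucleotides was 23 against 5. The 6593 were then split into 4 groups of equal size by mean rank, and 15 motifs were counted on both strands. These shares are descriptions, since rank chose the groups.

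The CCAAT box differed most in percentage points between the strongest and the weakest group. CCAAT or ATTGG was found in 67.2% of the strongest group, 49.8% and 38.3% of the middle ones and 31.7% of the weakest, against 35.4% of promoters without a region and 38.2% of all promoters. By the ranks of single controls, the strongest group ranged from 62.5% to 68.6% and the weakest from 30.5% to 36.7%, so every control showed the same order. At least 2 boxes were found in 41.6% of the strongest group and 8.13% of the weakest.

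Base composition varied among promoters, so the CCAAT share was also read within bands of GC content. In the band with the lowest GC content it was 76.7% in the strongest and 46.1% in the weakest rank group, and in the band with the highest it was 60.4% and 19.2%. The middle bands gave 72.8% and 32.8%, and 62.1% and 28.2%. The strongest group was higher in each band. The bands were broad, the lowest running from 36.7% to 57.3% GC, so composition could still differ between rank groups within a band. Among promoters with both, the nearest CCAAT box lay a median of 29.5 bp from the region's midpoint, and in 66.2% it was within 50 bp. Over the other motifs this share ran from 19.2% for TAATTA, the homeodomain core, to 64.0% for TGACGTCA, letters of CREB and ATF sites. With 5 letters CCAAT is the shortest of the 15 motifs and often occurs more than once. The share that this alone would give was not computed.

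The GC box and the ETS core differed more between promoters with and without regions than between ranks. The GC box bound by SP and KLF factors (GGGGCGGG, or CCCGCCCC) was found in 41.5% of the strongest and 33.3% of the weakest group but in 13.8% of promoters without a region, and in 22.1% of all promoters. The ETS core (CCGGAAG, or CTTCCGG) was found in 25.2% and 18.1%, against 4.81% without a region and 11.6% of all promoters. ACTACAA, or TTGTAGT, letters of THAP11 and ZFP143 sites, went the other way, with 9.16% in the strongest and 2.73% in the weakest group. It was in 5.58% of promoters that held a region, 2.63% of those without and 3.60% of all.

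The TATA box, the SOX letters and the homeodomain core were found less often in promoters that held a region than in those without. Only the CCAAT share was read within bands of GC content. Whether base composition accounts for the share of any motif was not tested. TATAAA, or TTTATA, was in 3.58% of the strongest group, 6.01% of the weakest, 17.6% of promoters without a region and 12.6% of all. The SOX letters CATTGTT, or AACAATG, were in 1.35% of promoters that held a region, 4.42% of those without and 3.25% of all. The homeodomain core TAATTA was in 1.82%, 6.16% and 4.53%. From the strongest to the weakest group the SOX share went from 1.76% to 1.27% and the homeodomain share from 1.52% to 2.79%. A match is a count of letters, not a bound site, and distal regions were not searched because their sequence was not used here.

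**Figure D4:**
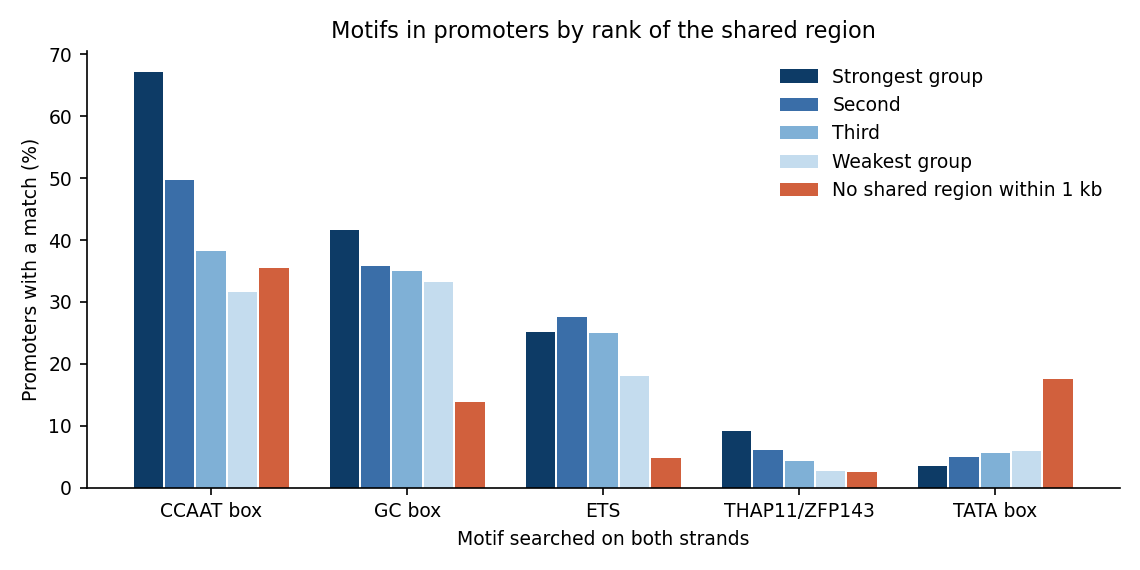
Percentage of protein-coding promoters (300 bases) with at least 1 match to each of 5 motifs on either strand. Blue bars are the 4 rank groups of the 6593 promoters that held a shared region, from the strongest to the weakest mean rank, and the orange bar is the 12410 promoters without a region within 1 kb. The CCAAT share falls from 67.2% to 31.7% over the 4 groups, and the TATA share is highest, at 17.6%, without a region.

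Promoters with strong regions more often had a divergent neighbour. An opposite-strand start of another gene within 500 bp was found for 23.7%, 17.4%, 13.8% and 8.01% of the promoters in the 4 rank groups from strongest to weakest. It was found for 1.76% of promoters without a region and 6.89% of all. Accessibility at such a site cannot be divided between both genes.

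Each radial glial marker had open chromatin nearby. By mean rank, the best shared regions of Pax6, Emx1 and Hes5 lay more than 1 kb from either gene end. Whether these sites lie at alternative starts was not tested. Sox2 had 5 shared regions. The best lay 76 bp upstream of its start (chr3:34649916-34649922), with ranks of 12078, 7788, 10220 and 8204. The others lay 7.27 kb upstream, 9.85 kb and 39.8 kb downstream and 88.1 kb upstream, with mean ranks from 14049.5 to 22926.2. Among the markers with a shared region, Sox2 was the one whose best region was proximal.

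Pax6 had 6 shared regions and all were distal. The best was inside the gene, 6.46 kb from its nearer end (chr2:105675356-105675357), and ranked 4143, 5534, 5193 and 3155. Within 1 kb of the Pax6 ends the best deposited summits ranked 78843, 67293, 80513 and 80409, far below the limit. A further region lay inside the gene, with a mean rank of 14071.5, and 4 lay outside it.

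Emx1 had 4 shared regions, and the best lay 22.4 kb from the gene (chr6:85165543-85165544) with ranks of 3378, 3919, 6849 and 4902. Its proximal region, 447 bp from the gene, ranked 11474, 11735, 12361 and 12539. The distal site ranked better than the proximal one in all 4 controls.

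Hes5 had 4 shared regions with mean ranks close together. Its proximal region (chr4:154960703-154960732) ranked 12828, 7254, 23582 and 13513, and the distal ones lay 2.21, 7.73 and 12.1 kb from the gene, with mean ranks of 14595.2, 13557.8 and 14077.2. Control 3 placed the proximal region lowest and control 2 placed it highest. In controls 2 and 4 the proximal region ranked ahead of the one at 7.73 kb (17574 and 14418). In controls 1 and 3 it ranked behind that one (10473 and 11766). The number of regions per marker depended on how many summits were read. With the best 14556 per library Sox2 had 1 region, Pax6 had 2, Emx1 had 3 and Hes5 had 0. With all deposited summits Sox2 had 15, Pax6 had 11, Emx1 had 5 and Hes5 had 4.

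Fabp7 had no region under the rule, though all 4 controls had a summit upstream of it. Controls 1, 3 and 4 had theirs between 611 and 616 bp upstream of the gene, at ranks of 5456, 8641 and 9447. Control 2 had its summit 390 bp upstream at rank 11848. The gap of 221 bp exceeded the chaining distance of 200 bp, and at 500 bp Fabp7 gained 1 region with a mean rank of 8848. Prom1, the gene of the protein used for the separation, had matched summits within 1 kb of an end in controls 1 and 3, at ranks of 17576 and 15622. Controls 2 and 4 had no deposited summit there.

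Over the 28 genes listed for radial glia and neural stem cells, 18 had a shared region within 1 kb of an end and 26 had any assigned region, meaning that the gene's end was the nearest within 100 kb. Of all 21887 protein-coding genes, 41.0% had a region within 1 kb and 52.0% had an assigned one. The list's shares were 64.3% and 92.9%. Its genes held 100 regions, with a median of 4 per gene, and 82 of the 100 were distal. Slc1a3, the glial glutamate transporter GLAST, had the most, at 8.

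Distal regions of this list were among the strongest of any listed gene. A site 50.8 kb inside Fgfr2, a fibroblast growth factor receptor, had ranks of 878, 2708, 1089 and 1438. A site 23.5 kb from Sox9, a factor of stem cell maintenance and gliogenesis, had ranks of 1324, 2284, 1938 and 1811. The Pou3f2 promoter, whose product is a factor of progenitors and upper-layer neurons, ranked 933, 1943, 463 and 457. Control 2 placed each of these 3 sites lowest.

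Genes of later stages also had regions. Of 15 intermediate progenitor genes, 9 had a proximal region (60%) and 14 any region (93.3%), against 41.0% and 52.0% of all protein-coding genes. Neurog2, a proneural factor, had a distal site 6.97 kb from the gene (chr3:127625626-127625902) ranked 1619, 3167, 2308 and 2400. Eomes, the defining factor of intermediate progenitors, had 1 region, with a mean rank of 17681.8. Of 25 projection neuron genes, 11 had a proximal region (44.0%), a share near that of all genes, and 21 any region (84.0%). The Fezf2 site, near a factor of deep-layer neurons, ranked 756, 688, 1058 and 1275 at 776 bp from the gene.

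Notch genes at several levels of the pathway had regions. In this pathway a ligand on 1 cell triggers cleavage of the receptor on its neighbour, and the released fragment joins RBPJ and Mastermind proteins to switch on Hes and Hey repressors. Of 27 genes, 16 had a proximal region (59.3%) and 24 had any region (88.9%), against 41.0% and 52.0% of all protein-coding genes, with 56 regions in all. The lists overlap: Hes1 and Hes5 are also on the radial glial list, and Dll3, Hes6 and Mfng on the intermediate progenitor list. Tbr1 is on both the intermediate progenitor and the projection neuron list. Among receptors, Notch1 and Notch2 had 5 regions each including a proximal one, Notch3 had 2 distal ones and Notch4 had none. Among ligands, Dll1 had 4 and Dll3 had 1, each with a proximal one, Dll4 and Jag1 had 2 distal ones each, and Jag2 had none.

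Mediators and targets of Notch differed in where their regions lay. The Mastermind coactivators Maml1, Maml2 and Maml3 had 1, 4 and 7 regions, and those of Maml3 were all distal. Rbpj had 3 distal regions. Hes1, a main target, had 3 distal regions, although controls 1, 2 and 4 had matched summits 104 to 146 bp from the gene at ranks of 10841, 14069 and 19569. In control 3 the summit at Hes1 ranked 31999, outside the limit.

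The strongest proximal site of any listed gene was that of Numb, an inhibitor of Notch passed unequally to daughter cells. It lay 83 bp from the gene (chr12:83921988-83922063) and ranked 165, 268, 58 and 49. Adam10, the protease that makes the first of the activating cuts in Notch, ranked 1020, 404, 1423 and 1063. The Maml2 and Maml3 sites, inside these genes, had mean ranks of 2114.75 and 2270.25.

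Most cell cycle and housekeeping genes had a region at an end. Of 25 cell cycle genes, 21 had a proximal region (84.0%) and 22 any region (88.0%), against 41.0% and 52.0% of all protein-coding genes. Of the 35 regions assigned to them, 16 were distal. Pcna, the sliding clamp of replication, ranked 325, 226, 413 and 460 at a site shared with Cds2, and Ccna2, an S and M phase cyclin, ranked 716, 391, 572 and 467 at a site shared with Bbs7. Of 15 housekeeping genes, 11 had a proximal region (73.3%) and 11 any assigned region (73.3%), against the same 41.0% and 52.0%. Ywhaz had a distal one alone, and Actb was among those with neither. The 12 regions assigned to the list had a median mean rank of 3903, against 11695.2 for all shared regions.

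Lists of ganglionic eminence, cortical hem and choroid plexus, and Hox genes had proximal regions less often than the 41.0% of all genes. Any assigned region was more frequent than the 52.0% of all genes, Hox genes apart. Neither difference was tested. Of 23 ganglionic eminence and interneuron genes, 5 had a proximal one (21.7%), among them Olig2, Sp9 and Ebf1, and 14 had any region (60.9%). Of 18 cortical hem and choroid plexus genes, 6 had a proximal one (33.3%) and 14 had any (77.8%). None of 15 Hox genes, which specify hindbrain and spinal cord, had a proximal region.

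Genes of non-neural cells had few regions at their ends. Proximal regions were found for 2 of 15 endothelial genes (Kdr and Erg), 2 of 10 mural genes (Kcnj8 and Tbx18), 3 of 15 meningeal fibroblast genes (Col1a1, Foxd1 and Lama1), 3 of 14 microglial and macrophage genes (Spi1, Irf8 and Tmem119) and 1 of 12 erythroid genes (Epor). Their shares ran from 8.33% to 21.4%, below the 41.0% of all protein-coding genes. Any region was found for 8 endothelial (53.3%), 4 mural (40%), 9 meningeal (60%), 5 microglial (35.7%) and 4 erythroid genes (33.3%), so the endothelial and meningeal shares were at or above the 52.0% of all genes. Whether these regions came from the separated progenitors or from other cells was not tested.

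Crabp2, a retinoic acid binding protein listed with meningeal fibroblasts, had the strongest distal site of any listed gene. It ranked 332, 146, 534 and 521 (chr3:87960967-87960997) and lay 7.61 kb from Crabp2 and 10111 bp from the listed start of Nes, an intermediate filament gene of neural stem cells. Klf1, an erythroid factor, had a site 1235 bp inside the gene with a mean rank of 2722.75.

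Requiring a single region left out some genes that had summits near an end in every control. With a matched summit within 1 kb of an end in every control, whether or not the summits chained, 9460 genes (43.2%) qualified, and 510 of these had no shared region there. Fabp7 and Vim were such radial glial genes, Insm1 and Elavl4 such intermediate progenitor genes, and Jag1 such a Notch gene. The summits of a gene could lie at either end or at different sites. At Jag1 they lay 236, 550, 998 and 968 bp from an end in controls 1 to 4. The absence of a summit is also no measure of closed chromatin: Actb, the cytoplasmic actin gene, picked after its values were seen, had no deposited summit within 1 kb of an end in controls 2, 3 and 4 and a low-ranking one in control 1.

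**Figure D5:**
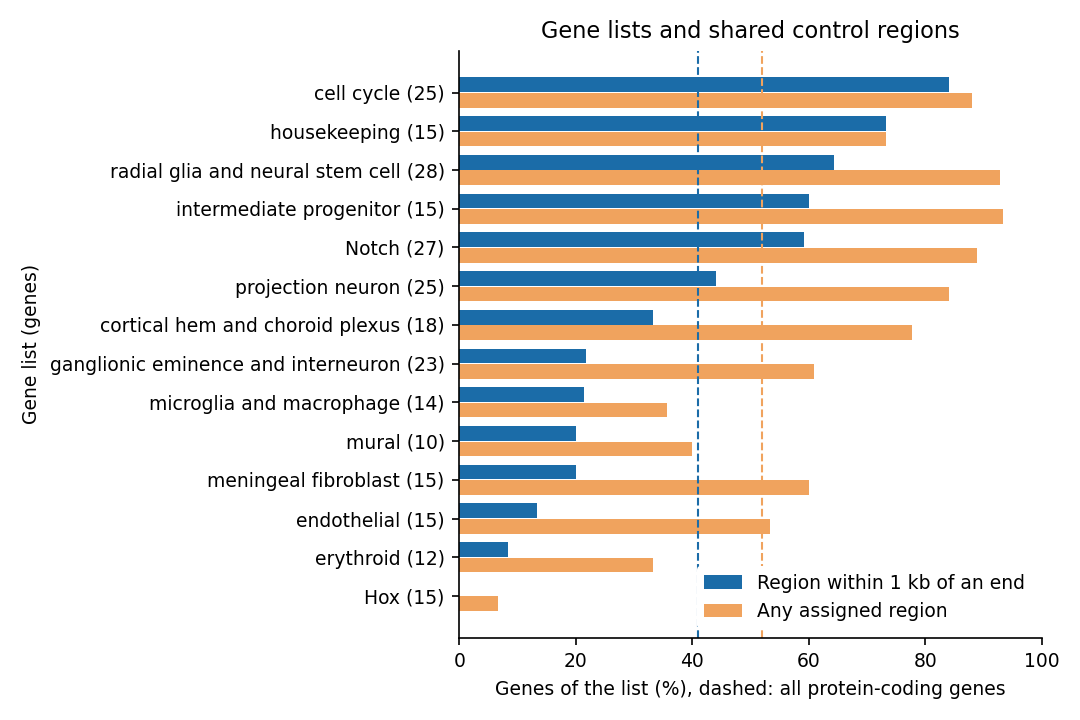
Percentage of the genes of each list with a shared control region within 1 kb of an end (blue) and with any assigned region (orange), with the number of genes in parentheses. Dashed lines are the shares of all protein-coding genes, 41.0% and 52.0%; cell cycle genes reach 84.0% for proximal regions and Hox genes 0%.

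Most genes with a region had 1, and the 20 genes with most had a higher median length than genes with any region. Of the 11371 genes with an assigned region, 7561 had 1, 3463 had 2 to 4 and 347 had 5 or more. Mef2c, which encodes a factor of neuronal and muscle differentiation, was among those with 11. Creb5, Mvb12b, Nfia, Nfib and Tle3 were among those with 10. Bach2, Chd2, Cplx2, Ctif, Gli2, Ralgapa2, Rhcg, Septin9 and Sertad2 had 9 each. A further 21 genes had 8, of which 1700001O22Rik, Abcc4 and Agbl4 completed the first 20 by symbol order.

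Regions of these genes lay along and beside them. Of the 11 Mef2c regions, 3 were inside the gene and 8 outside it, and all were distal. The best lay 78.0 kb from the gene (chr13:83745087-83745124) and ranked 7249, 4322, 4404 and 3801. The 8 outer regions lay on 1 side, between 48.2 and 82.9 kb from the gene.

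Nfia and Nfib, nuclear factor I genes that act in radial glial maturation and gliogenesis, stood in this group. Nfia had 10 regions, 8 of them inside the gene, and the best (chr4:97649431-97649491) ranked 1359, 2362, 3506 and 2735. Nfib had 10 regions, 6 inside, with a best mean rank of 6313.75. Tle3, a Groucho corepressor recruited by Hes proteins, had 3 of 10 regions inside, and Gli2, an effector of Hedgehog, had 5 of 9.

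Most of these regions were distal and of middling rank. Of the 187 regions of the 20 genes, 176 were distal and 102 (54.5%) lay inside the gene. Over all assigned regions 43.9% were proximal, against 10.8% in genes with 5 or more, and 70.5% of the genes with 1 region had it near an end. Chd2, a chromatin remodeller, and Ralgapa2, a regulator of Ral GTPases, differed from the other 18 genes in rank. Their regions had median mean ranks of 2014.25 and 3006.75, and the medians of the others ran upward from 10319.6.

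Length went with the number of regions. The 20 genes had a median length of 190 kb, genes with 5 or more regions 138 kb, all genes with a region 26.5 kb and all protein-coding genes 17.2 kb. Over the 11371 genes with a region, length and number of regions had a Spearman rho of 0.328. This is a description across genes, which are not independent and of which long ones offer more distance within reach. Counting regions within the gene body and 5 kb on both sides, 2 of the 20 genes remained among the first 20. With all deposited summits 7 remained, and with the best 14556 per library 12. In these counts genes tied with the 20th were let in, which under the rule used here gives 38 genes. The 20 named genes were instead cut by symbol order among ties, so the counts favour remaining.

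The same regions were mostly present in the other libraries of the series, where they had not been chosen. A matched summit within the chaining distance was found for 90.5% to 95.6% of them in the 5 controls on the retinoic acid diet, 80.7% to 98.3% in the 4 mutants and 79.1% to 93.2% in the 6 mutants on the diet. In all 15 of these libraries, 12206 regions (57.0%) were found, which were 74.4% of the proximal and 46.7% of the distal regions. The groups' ranges overlapped. Mutant 1 carries a wild-type genotype label, and it was kept under its title.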

How the data were processed

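Peak summits of 19 ATAC-seq libraries were deposited by the authors, 1 list per library, and the 4 lists titled Control 1 to Control 4 were used; the deposited lists number them 2 to 5, and the titles' numbers are used throughout. The submitters' processing notes name the tools BWA, MACS2, Signac and DiffBind, with mm10 (GRCm38) as the build; versions and settings are not given in the sources used here. The value deposited per summit was read as the -log10 of a q-value, because the smallest was near 1.30 in every control, as a q-value limit of 0.05 gives. It was used only to order summits within a library, ties by position. Without reads or peak widths, depth is unknown and no interval was computed.

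Regions were built from the 29112 best summits per library, chained at up to 200 bp. Gene ends of 21887 protein-coding genes and promoters of 300 bases came from RefSeq tables of GRCm38.p6. Strand was taken from promoter entries, which matched 17492 of these genes and listed several starts for some genes. No entry was on chromosome 18, so every figure for promoters, motifs and start sites leaves that chromosome out. No genome sequence was used, so motifs were searched in promoters only. Each region was assigned to the gene with the nearest end within 100 kb. Named were the 20 regions of smallest mean rank, the 10 such distal regions, the 20 genes with most regions, the 5 markers, the 10 best proximal regions of listed genes and list members where a count was 5 or fewer; other listed genes and the distal sites of listed genes were named after their values were seen. Some genes that met this rule are not reported here. Members, the 14 gene lists and this rule were chosen with earlier results of these data known. Region building and distances were tested on simulated data. The planned exact sign-flip permutation test of the near-end share is not given, because that share follows the rank that chose the regions. Alternatives changed the number of summits, chaining distance, proximal distance, anchor, assignment and libraries; the CCAAT comparison under these was added after seeing the data. Python 3.11.15, numpy 2.4.6, pandas 2.3.3, scipy 1.17.1 and matplotlib 3.10.9 were used.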

Additional observations from a re-analysis of the deposited data

Results flagged for a closer look

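Ranks and summit numbers of the named sites and genes were checked for a control standing apart from the other 3. The gap to the nearest other control, over the whole range of the 4, had to exceed Dixon's 95% critical value. Of 107 values checked, 12 stood apart, of which 11 are given. Chance flags about 1 in 20 for normally distributed values. That rate does not apply to ranks of sites that were picked by those same ranks. It also does not apply to numbers of summits, where 3 equal controls make any 1 that differs stand apart. The number standing apart is therefore a description with no test. Control 2 was the one apart in 5, controls 1 and 3 in 3 each and control 4 in 1.

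Control 2 ranked sites lower than the other controls at Stip1 (16), Srgap2 (70), Rpgrip1 (85) and Trim45 (169), and at the Sox2 region 88.1 kb upstream of the gene (26557). Control 1 ranked the Zfp958 site lower, at 196. Control 3 ranked the Emx1 region 2.58 kb from the gene better than the others did, at 10323. Numbers of matched summits stood apart for Bach2 in control 3 (11, lowest), Chd2 in control 1 (9, lowest), Ctif in control 3 (12, highest) and Hes5 in control 4 (5, highest). In each of these 4 genes the other 3 controls had equal numbers.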

How the results depend on the processing

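With the best 14556 summits per library, 10778 regions were shared, 53.8% were proximal, the rank gap between distal and proximal regions was 19.6% of the list, and 12 of the 20 genes with most regions remained. With all deposited summits these were 56900 regions, 18.9% proximal and 7 genes, and the near-end difference was 10.5 points, so the proximal share follows how deep the list is read. It was 34.0% within 500 bp of a gene end, 46.2% within 5 kb and 33.1% at start sites only. Counting regions inside genes or up to 5 kb outside them, 2 of the 20 genes remained. In all such counts of remaining genes, here and below, genes tied with the 20th were let in. Numbers of regions changed for 23 of the 25 genes with most regions and markers in each setting of summit number.

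Without each control in turn, 22089 to 22969 regions were shared, 35.7% to 36.9% of them proximal. The near-end difference was 16.8 to 20.3 points. The rank gap was 25.7% to 27.4%, genes with a proximal region numbered 9058 to 9287, 18 to 19 of the top genes and 9 to 18 of the strongest sites remained, 9 without control 2. The CCAAT share of the strongest rank group exceeded that of the weakest by 35.5 points, and by 34.5 to 37.1 without 1 control.

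No paired analysis was possible because a single group was described. Ranks show the order of summits, not the amount of accessible DNA, and depth could not be compared between libraries.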

Other observations

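The regions of Ralgapa2 and Chd2 stood out among genes with many. Of the 9 Ralgapa2 regions, 8 were inside the gene. The one 67 bp from its end ranked 952, 440, 952 and 1580 in controls 1 to 4, and 7 of the 9 had a mean rank below 4000. Of the 9 Chd2 regions, 1 was inside the gene. The best, 16.9 kb outside it (chr7:73558623-73558692), ranked 141, 38, 281 and 313, and 4 of the others had mean ranks from 327.5 to 2014.25. The region at the end of Chd2 itself, 13 bp outside, was the weakest of the 9, with a mean rank of 20167.5. The other 18 genes had medians of 10319.6 or above.

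Regions beyond 100 kb of any protein-coding gene end included strong ones, named after their values were seen. The best lay 230 kb from G2e3 (chr12:51118215-51118291) and ranked 532, 197, 124 and 220. The next lay 448 kb from BC052040, with a mean rank of 341.25. The one after it lay 236 kb from Myt1l, a neuronal zinc finger gene, with a mean rank of 446.75. The nearest listed start of any kind was 38830 bp from the first of these.

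Chromosome X held fewer shared regions for its genes than any autosome did. It had 472 regions, or 0.489 per protein-coding gene, against 0.716 to 1.35 on the autosomes, and 50.4% of them were proximal. The sex of the embryos is not given in the labels.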
